A study of Homo sapiens with 4 samples.

Results

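The MYC network is represented here by 10 transcription factor genes, chosen by gene symbol in the deposited table of counts: MYC, MYCL, MAX, MXD1, MXI1, MXD3, MXD4, MNT, MGA and MLX. All 10 were found among the 58735 genes of the table, and all 10 passed the filter on low counts. Expression was compared in HCC1954 cells, an established human breast cancer line, between 2 samples with a negative control hairpin (shCON) and 2 samples with a hairpin against ZDHHC15 (shZDHHC15), a gene that encodes a palmitoyltransferase. The labels call the knockdown stable in one place, and in another they describe plasmid transfection with GIPZ vectors and harvest at 36 h. They do not say whether the sample numbers stand for cultures, clones or different hairpins, so the p-values measure only the spread between these samples, which may be technical.

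MYC is a transcription factor that drives growth, ribosome production and cell division, and it binds DNA only as a dimer with MAX. The proteins of the MXD family (MXD1, MXI1, MXD3, MXD4) and MNT also dimerize with MAX, recruit the SIN3-HDAC corepressor and occupy the same DNA motif, the E-box, so that they oppose MYC. MGA joins MAX in a repressive Polycomb complex, and MLX pairs with several of the MXD and MNT proteins as well as with the glucose-responsive factors MLXIP (MondoA) and MLXIPL (ChREBP).

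The total counts lay between 17560982 and 19118704 per sample. ZDHHC15 received 17617 and 15716 counts in shCON and 0 counts in both shZDHHC15 samples. The epithelial and ERBB2 markers of the line were all detected. In shZDHHC15 cells, however, 5 of 7 fell (71.4%, beside 20.3% of all tested genes). These were KRT8, KRT18, GRB7, EPCAM and ERBB2, from -1.62 for KRT8 to -0.24 for ERBB2 on the log2 scale. KRT19 rose by 0.44 (adjusted p = 0.0115) and CDH1 was at -0.05 (adjusted p = 0.706). Of 12 markers of leukocytes, fibroblasts and endothelium, 9 were too low to be tested, among them CD3E with 0 counts in every sample. The 3 tested, CD14, COL1A1 and PECAM1, were all higher (100%, beside 21.7% of all tested genes). The summed level of the 12 markers was 10.6 and 11.7 CPM in shCON and 49.5 and 31.2 CPM in shZDHHC15. Most of that difference was PECAM1, an endothelial marker, with 4.11 and 3.32 CPM in shCON and 35.8 and 20.6 CPM in shZDHHC15. CPM are counts scaled to the library total, with TMM factors, and the part of such cells in the results was not tested. In bulk samples, fewer cells of a type and less RNA per cell cannot be told apart.

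Of the 10 network genes, 3 rose (MXD1, MXD4 and MGA), 2 fell (MYC and MYCL) and 5 did not pass an adjusted p of 0.05 (edgeR's quasi-likelihood test over 15817 genes). Among all tested genes 21.7% rose and 20.3% fell (42% in either direction), so the number of network genes called is near the background, and the count says nothing particular about the network. Their median log2 fold change was 0.09, beside 0.02 for all tested genes. The groups did not overlap for 8 of the 10 genes, 5 of them higher and 3 lower, while 72.5% of all tested genes showed no overlap, 37.2% higher and 35.3% lower.

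**Figure D1:**
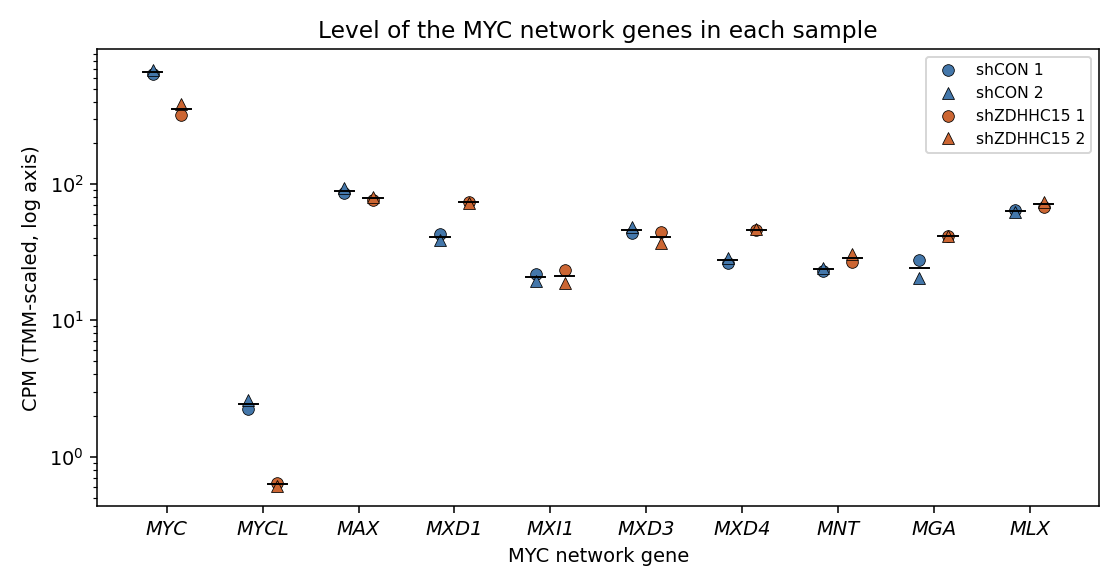
Level of each network gene in each sample, in TMM-scaled CPM on a log axis, with shCON in blue, shZDHHC15 in orange, circles for replicate 1, triangles for replicate 2 and a bar at each group mean. MYC lies lower in both shZDHHC15 samples (322 and 387 CPM) than in both shCON samples (637 and 684 CPM), while MXD1, MXD4 and MGA lie higher.

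MYC (ENSG00000136997, chromosome 8, 127735434 to 127741434, plus strand, GRCh38) was by far the most abundant member. It received 11619 and 11535 counts in shCON and 5996 and 7602 counts in shZDHHC15, which is 637 and 684 CPM against 322 and 387 CPM. Both shZDHHC15 samples lay well below both shCON samples, and shZDHHC15 replicate 1 was the lowest. The mean was 661 ± 32.9 CPM in shCON and 355 ± 46.1 CPM in shZDHHC15 (SD, n = 2). On the log2 scale MYC fell by 0.90, with a standard error of 0.0999 and an adjusted p of 6.18e-06. That is 0.537 of the control level, with a 95% interval from 0.463 to 0.622. No other annotated gene overlaps its exons, and no near-identical copy was found in the transcripts of other genes. Among all tested genes, 5.42% fell further.

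MYCL, the L-MYC paralog that is best known from lung cancer and is also active in dendritic cells, was close to the limit of detection. It received 41 and 44 counts in shCON and 12 and 12 counts in shZDHHC15, or 2.25 and 2.61 CPM against 0.644 and 0.611 CPM. The samples of each group lay close together and the groups did not overlap. MYCL fell by 1.94 on the log2 scale, with a standard error of 0.376 and an adjusted p of 8.27e-04, and with a 95% interval from -2.74 to -1.14. This was the largest fold change of the 10 genes, on the fewest counts. An antisense gene, AL033527.2, shares 226 of its exon bases and had 0 to 4 counts.

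MYCN, the third MYC gene, is not among the 10 and could not be tested, since it had no reads in shCON (0 and 0 counts) and few in shZDHHC15 (5 and 2 counts). A count of 0 allows up to 3 counts, or 0.165 and 0.178 CPM in the shCON samples, a limit that covers counting error only.

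MAX (chromosome 14, 65006174 to 65102695), the dimer partner shared by MYC, MXD, MNT and MGA proteins, changed little. Its level was 85.2 and 93.2 CPM in shCON and 77.0 and 79.8 CPM in shZDHHC15. Both shZDHHC15 samples were the lower ones, but the log2 fold change of -0.19 (standard error 0.0995, 95% interval -0.40 to 0.03) did not pass the test (adjusted p = 0.149). Without shCON replicate 1 it was -0.28 and passed (adjusted p = 0.036).

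**Figure D2:**
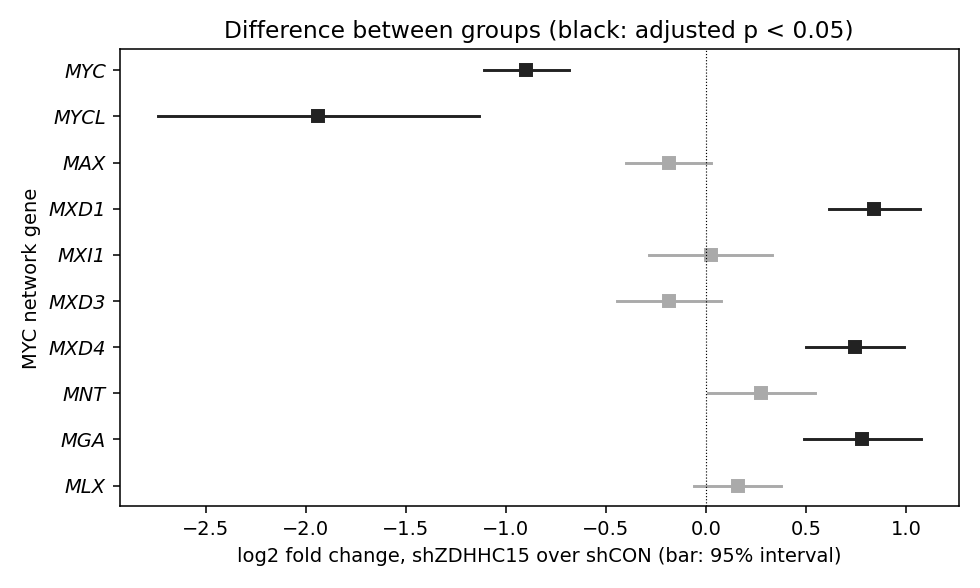
Log2 fold change of each network gene, shZDHHC15 over shCON, with its 95% interval from the edgeR fit, in black where the adjusted p was under 0.05 and in gray otherwise. MYC (-0.90) and MYCL (-1.94) lie left of 0, MXD1 (0.84), MXD4 (0.75) and MGA (0.78) lie right of it, and the other 5 genes lie between -0.19 and 0.28.

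The genes of the MXD family went in different directions. MXD1 (chromosome 2, 69897688 to 69942945), which encodes the antagonist MAD1 that accumulates as cells stop dividing and differentiate, had 43.2 and 38.7 CPM in shCON and 74.1 and 72.7 CPM in shZDHHC15. The groups lay far apart, and the shZDHHC15 samples differed from each other by little. The mean was 40.9 ± 3.19 CPM in shCON and 73.4 ± 0.964 CPM in shZDHHC15 (SD, n = 2). MXD1 rose by 0.84 on the log2 scale, with a standard error of 0.107, and had the smallest adjusted p of the genes that rose (2.10e-05). SNRNP27, on the same strand, shares 237 exon bases with MXD1 (3.73%) and itself fell by 0.64 on the log2 scale (adjusted p = 0.00159).

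MXD4 (chromosome 4, 2247432 to 2262294), another antagonist of the family, had 26.3 and 28.9 CPM in shCON and 45.6 and 46.8 CPM in shZDHHC15. All values of one group lay above all values of the other, as for MXD1. The mean was 27.6 ± 1.84 CPM in shCON and 46.2 ± 0.863 CPM in shZDHHC15 (SD, n = 2), and MXD4 rose by 0.75 on the log2 scale, with a standard error of 0.114 and an adjusted p of 1.18e-04.

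MXD3 and MXI1, the remaining antagonists of the family, did not follow them. MXD3 (chromosome 5), which unlike its relatives is expressed in S phase, had 43.8 and 48.7 CPM in shCON and 44.5 and 36.9 CPM in shZDHHC15. The groups overlapped and the log2 fold change was -0.18 (standard error 0.121, 95% interval -0.44 to 0.07, adjusted p = 0.241). PRELID1 on the opposite strand shares 22.5% of the exon bases of MXD3 and had 4488 to 7378 counts, against 724 to 828 for MXD3. MXD3 counts are thus uncertain where counting ignored strand. RAB24, with 214 to 282 counts, shares 18.0% of the MXD3 exon bases on the same strand, which no strand setting separates. MXI1 (chromosome 10) had 401 and 327 counts in shCON and 436 and 368 counts in shZDHHC15, with a mean of 20.7 ± 1.85 CPM in shCON and 21.1 ± 3.30 CPM in shZDHHC15 (SD, n = 2). In CPM the shZDHHC15 samples held both the highest and the lowest value, and the log2 fold change was 0.02 (standard error 0.144, 95% interval -0.28 to 0.33, adjusted p = 0.913). It changed sign without shCON replicate 2 (-0.07), without shZDHHC15 replicate 1 (-0.14) and with upper-quartile factors (-0.0070).

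MNT (chromosome 17, 2384060 to 2401118), the broadly expressed antagonist, had 23.1 and 24.3 CPM in shCON and 27.0 and 30.5 CPM in shZDHHC15. The groups did not overlap, but the log2 fold change of 0.28 (standard error 0.125) did not pass after adjustment (adjusted p = 0.0889). It passed with library size as the only scaling (0.35, adjusted p = 0.0378). An antisense gene without counts, AC006435.1, shares 12.2% of its exon bases.

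MGA (chromosome 15, 41621224 to 41773081), a factor with both a T-box and a basic helix-loop-helix zipper domain, had 27.6 and 20.5 CPM in shCON and 41.6 and 41.4 CPM in shZDHHC15. The shCON samples differed from each other far more than the shZDHHC15 samples did, and shCON replicate 2 was the lowest. MGA rose by 0.78 on the log2 scale, with a standard error of 0.137 and an adjusted p of 3.66e-04, and the rise was 0.99 without shCON replicate 1 and 0.57 without shCON replicate 2.

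MLX (chromosome 17, 42567068 to 42573239) had 64.4 and 62.5 CPM in shCON and 68.3 and 73.4 CPM in shZDHHC15. Both shZDHHC15 samples were the higher ones, but the difference of 0.16 on the log2 scale did not pass the test (standard error 0.101, 95% interval -0.06 to 0.37, adjusted p = 0.228). PSMC3IP, antisense to MLX over 18.1% of its exon bases, rose by 0.42 (adjusted p = 0.0179). Of its glucose-responsive partners, MLXIP had 72.0 and 66.9 CPM in shCON and 92.5 and 89.4 CPM in shZDHHC15, a log2 fold change of 0.39 (adjusted p = 0.00565). MLXIPL, with 2 to 6 counts per sample, could not be tested.

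The length of a gene moved with the difference between groups. Over all tested genes, the median log2 fold change was -0.23 for genes of 1000 to 2000 bases and 0.37 for genes of over 12000 bases, of which 48.5% rose and 7.27% fell. The shCON samples also differed from each other by length, with a median of 0.09 for shCON replicate 2 over replicate 1 in the first of these classes and -0.17 in the second. For shZDHHC15 replicate 2 over replicate 1 these medians were 0.0155 and -0.0805. MGA, at 17651 bases, is the longest of the 10 genes. With an offset for gene length, an alternative chosen after seeing the data, its log2 fold change was 0.44 (adjusted p = 0.00651), that of MNT (8728 bases) was 0.11 and that of MYC (3001 bases) was -0.81, while MXD1 (6351 bases) and MXD4 (7058 bases) kept 0.77 and 0.65. MLXIP (13905 bases) no longer passed (0.09, adjusted p = 0.498), nor did it pass without shZDHHC15 replicate 1 (0.36, adjusted p = 0.0568). GC content, taken from the longest transcript of a gene, moved with the difference as well. The median log2 fold change was 0.13 for genes of up to 40% GC and -0.12 for genes of over 60%. For shCON replicate 2 over replicate 1 these medians were -0.17 and 0.11. The causes of the length and GC trends were not tested.

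Levels can be compared between genes only per length, for which CPM was divided by the length in kilobases (RPKM). The lengths were given per gene and not per transcript, from 3001 bases for MYC to 17651 bases for MGA. The order of the genes and the ratios between them depend on these lengths. In shCON the order was MYC (220 RPKM), MAX (20.1), MLX (14.9), MXD3 (8.97), MXD1 (6.44), MXI1 (4.49), MXD4 (3.91), MNT (2.72), MGA (1.36) and MYCL (0.480), given as mean RPKM. In shZDHHC15 it was MYC (118 RPKM), MAX (17.7), MLX (16.6), MXD1 (11.6), MXD3 (7.89), MXD4 (6.55), MXI1 (4.58), MNT (3.29), MGA (2.35) and MYCL (0.124). MXD1 and MXD3 thus exchanged places, as did MXD4 and MXI1. Neighbours in the order did not overlap within a group, but some were close, with MXI1 at 4.21 and MXD4 at 4.09 RPKM in shCON replicate 2, and MAX at 17.4 RPKM in shZDHHC15 replicate 1 and MLX at 17.2 RPKM in replicate 2. MYC ranked 174th of 15817 tested genes by this measure in shCON and 305th in shZDHHC15.

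MYC transcripts exceeded those of the antagonists (MXD1, MXI1, MXD3, MXD4, MNT and MGA summed, in RPKM) in every sample. The ratio was 7.58 and 8.20 in shCON and 2.88 and 3.67 in shZDHHC15. The antagonists together had 28.0 and 27.8 RPKM in shCON and 37.3 and 35.2 RPKM in shZDHHC15. In this ratio MYC was thus lower and the sum of its antagonists higher. Not every antagonist rose, since mean RPKM was 8.97 in shCON and 7.89 in shZDHHC15 for MXD3. For MXI1 it was 4.49 and 4.58. MXD1, MXD4, MNT and MGA summed had 14.7 and 14.1 RPKM in shCON and 23.6 and 23.9 RPKM in shZDHHC15. Relative to MAX, MYC stood at 11.0 and 10.8 in shCON and at 6.18 and 7.16 in shZDHHC15, and the antagonists at 1.46 and 1.32 in shCON and at 2.15 and 1.95 in shZDHHC15. MYC made up 77.2% and 78.1% of the summed RPKM of the 10 genes in shCON and 60.3% and 64.7% in shZDHHC15. These are ratios of transcripts, given as a description, and say nothing of protein.

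**Figure D3:**
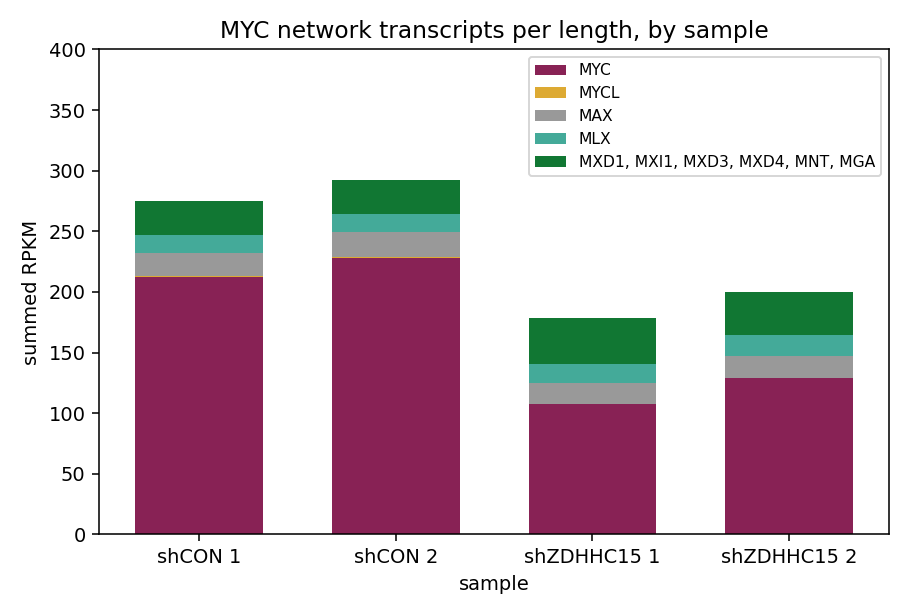
Summed RPKM of the network genes in each sample, stacked from MYC at the bottom through MYCL (barely visible), MAX and MLX to the antagonists at the top. The MYC part shrinks from 212 and 228 RPKM in shCON to 107 and 129 RPKM in shZDHHC15. The sum of the antagonists grows from 28.0 and 27.8 to 37.3 and 35.2 RPKM.

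The E-box that MYC-MAX and MXD-MAX dimers bind best has the letters CACGTG, which read the same on both strands. RefSeq promoters (250 bases before to 50 after a start, GRCh38.p14) were at hand for 9 of the 10 genes, and an exact match lay in those of MXD4, MNT and MLX. One is held by 7.26% of all 35116 promoters given by RefSeq, and among the 10740 tested genes with a RefSeq promoter 12.6% have one. For these genes the bases of the window that lie outside exons annotated by GENCODE are shown, and those of MXD1, the rising gene with the smallest adjusted p, are shown beside them for contrast, all 5′ to 3′ on the strand of the gene, with the E-box in capitals. The windows are chr4:2262295-2262359 (minus strand) for MXD4, chr17:2401119-2401310 (minus strand) for MNT, chr17:42566850-42567067 (plus strand) for MLX and chr2:69914859-69915040 (plus strand) for MXD1. The MXD1 window lies within the annotated gene, before a start used by RefSeq.
MXD4: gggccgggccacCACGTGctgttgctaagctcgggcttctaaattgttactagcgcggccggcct
MNT: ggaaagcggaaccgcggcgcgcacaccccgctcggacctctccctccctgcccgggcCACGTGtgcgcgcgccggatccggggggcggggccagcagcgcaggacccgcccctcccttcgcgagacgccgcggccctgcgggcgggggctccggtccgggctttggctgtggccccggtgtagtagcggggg
MLX: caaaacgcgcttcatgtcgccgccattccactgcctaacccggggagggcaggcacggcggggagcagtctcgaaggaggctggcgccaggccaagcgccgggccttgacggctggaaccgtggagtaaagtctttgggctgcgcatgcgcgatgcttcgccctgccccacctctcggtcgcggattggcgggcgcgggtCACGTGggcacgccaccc
MXD1: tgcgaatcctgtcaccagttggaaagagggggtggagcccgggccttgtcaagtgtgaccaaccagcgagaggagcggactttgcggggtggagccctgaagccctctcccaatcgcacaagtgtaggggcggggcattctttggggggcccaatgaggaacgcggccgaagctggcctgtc
Counted from the RefSeq start, with -1 as the base before it, the match begins at -238 in MXD4, at -193 in MNT and at -50 in MLX. These RefSeq starts lie inside exons annotated by GENCODE, so the stretches shown end before them. Of the genes that rose, MXD4 has a match while MXD1 and MGA do not, and MNT and MLX, which have one, did not pass the test. A match is a description of letters and not a bound site.

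Genes that MYC is known to activate were mostly lower in shZDHHC15 cells. This list was written from general knowledge, but with earlier results of these data known. Of its 63 tested genes, 34 fell (54.0%, beside 20.3% of all tested genes) and 5 rose (7.94%, beside 21.7%). The median log2 fold change was -0.34. ODC1, the rate-limiting enzyme of polyamine synthesis, fell by 1.38 on the log2 scale, from 129 ± 3.33 CPM in shCON to 49.4 ± 6.07 CPM in shZDHHC15 (SD, n = 2) (adjusted p = 1.58e-07). RRP9, a factor of ribosomal RNA processing, fell by 1.00 on the log2 scale (adjusted p = 1.45e-05). PPAN, a ribosome assembly factor, fell by 0.97 (adjusted p = 0.00203), but its exons overlap the readthrough gene PPAN-P2RY11, and its counts could be split.

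Against this direction, E2F2, a cell cycle transcription factor, rose by 0.98 (adjusted p = 8.73e-06), HK2, a hexokinase of glycolysis, by 0.59 (adjusted p = 3.31e-04) and TMEM97, a sterol-related membrane protein, by 0.50 (adjusted p = 9.48e-04). LDHA, the lactate dehydrogenase subunit, was at -0.39 (adjusted p = 0.00236) and NCL, which encodes nucleolin, at 0.15 (adjusted p = 0.165). With the offset for gene length, 34 fell and 3 rose. With upper-quartile factors or no filter on low counts 3 rose as well.

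Falls among these genes were found with and without the E-box. Of those with a RefSeq promoter, 28 tested genes have CACGTG, with a median log2 fold change of -0.37 and 16 lower genes, and 22 do not, with a median of -0.38 and 14 lower genes. Among all tested genes with a promoter, 331 of 1353 with the motif (24.5%) and 2062 of 9390 without it fell. No test was made of these shares.

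Genes that MYC is known to repress went both ways. Of 13 tested, 2 rose (15.4%, beside 21.7% of all tested genes) and 4 fell (30.8%, beside 20.3%), with a median of -0.14. NDRG1, a differentiation and stress gene, rose by 1.31 on the log2 scale, from 68.6 ± 1.88 CPM in shCON to 170 ± 45.1 CPM in shZDHHC15 (SD, n = 2) (adjusted p = 4.26e-06), and its relative NDRG2 rose by 0.84 (adjusted p = 1.70e-04). THBS1, which encodes thrombospondin 1 (log2 fold change -2.35), the growth arrest genes GADD45B (-1.80) and GADD45A (-1.46) and the cyclin gene CCND1 (-1.30) fell, with adjusted p-values between 7.76e-09 and 5.70e-07. CDKN1A, which encodes the cell cycle inhibitor p21, was at -0.24 (adjusted p = 0.0930), and CDKN1B, for p27, at -0.02 (adjusted p = 0.926).

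Genes known to be activated through MLX and its glucose-responsive partners, a short list, were mostly higher. Of these partners, MLXIPL had 2 to 6 counts per sample, and the rise of MLXIP did not pass with the offset for gene length. Whether these genes moved through MLX was not tested. Of 6 tested, 5 rose (83.3%, beside 21.7% of all tested genes) and 0 fell, with a median of 0.67. ACACA and FASN, the enzymes of fatty acid synthesis, rose by 1.10 (adjusted p = 3.25e-06) and 0.92 (adjusted p = 1.28e-05). PFKFB3, a regulator of glycolysis, rose by 1.00 on the log2 scale, from 144 ± 1.57 CPM in shCON to 287 ± 20.5 CPM in shZDHHC15 (SD, n = 2) (adjusted p = 1.04e-06). TXNIP, a well-known target of MLXIP-MLX dimers, rose by 0.42 (adjusted p = 0.0373), while ARRDC4, another such target, had 0 to 3 counts and could not be tested. Without shZDHHC15 replicate 1, 3 of the genes passed. With the offset for gene length 4 passed, and ACACA (13008 bases) was at 0.81.

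The proteins with which MYC works on chromatin went both ways, at a median of -0.05. Of 17 genes, 4 were higher (23.5%, beside 21.7% of all tested genes) and 6 lower (35.3%, beside 20.3%). TRRAP, the scaffold of histone acetyltransferase complexes, rose by 1.00 (adjusted p = 7.11e-06), EP400, a chromatin remodeler, by 0.99 (adjusted p = 7.43e-05) and EP300, an acetyltransferase, by 0.61 (adjusted p = 0.00102). These are among the longest genes, of 12500 to 19972 bases, and with the offset for gene length they were at 0.62, 0.63 and 0.34, each still past the test. KAT5, the acetyltransferase TIP60, was at -0.74 (adjusted p = 2.11e-04), SMARCB1, a subunit of the SWI/SNF remodeler, was at -0.70 (adjusted p = 3.27e-05) and ZBTB17, which encodes the MYC partner MIZ1, at -0.55 (adjusted p = 0.00265). SMARCB1, at 16525 bases, was at -1.05 with the offset for gene length. EP400 has a near-identical copy, EP400P1, and its counts are uncertain.

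Of 10 corepressor genes recruited by MXD and MNT proteins, 4 rose (40%, beside 21.7% of all tested genes) and 1 fell (10%, beside 20.3%). Their median was 0.23. SIN3A, the scaffold bound by the MXD proteins, rose by 0.73 on the log2 scale, from 44.3 ± 5.02 CPM in shCON to 73.4 ± 5.33 CPM in shZDHHC15 (SD, n = 2) (adjusted p = 1.41e-04), whereas with the offset for gene length it was at 0.45 (adjusted p = 0.00157). Its paralog SIN3B was at -0.14 (adjusted p = 0.286). NCOR1 rose by 0.49 (adjusted p = 0.00657), but with the offset for gene length it was at 0.17 (adjusted p = 0.197), and without shCON replicate 2 at 0.28 (adjusted p = 0.0499). SUDS3, a SIN3 subunit, rose by 0.35 (adjusted p = 0.0278), a call that was lost with DESeq2 (adjusted p = 0.0993), without shCON replicate 2 (0.151), without shZDHHC15 replicate 1 (0.128) and without shZDHHC15 replicate 2 (0.0952). SAP18 fell by 0.40 (adjusted p = 0.00337). The number of genes that rose was 2 without shCON replicate 2, without shZDHHC15 replicate 1 and without shZDHHC15 replicate 2.

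Of 10 partners of MGA in its Polycomb complex, 1 rose (10%, beside 21.7% of all tested genes) and 3 fell (30%, beside 20.3%). Their median was 0.02. TFDP1, a partner of E2F factors, rose by 0.29 (adjusted p = 0.0158), and YAF2, RYBP and CBX1 fell by 0.43, 0.37 and 0.34 (adjusted p between 0.00706 and 0.0187). Without shCON replicate 1, RYBP was at -0.235 and did not pass (adjusted p = 0.103). YAF2, at 10839 bases, was at -0.67 with the offset for gene length. L3MBTL2 and PCGF6, the subunits that mark this complex, were at 0.21 (adjusted p = 0.144) and 0.33 (adjusted p = 0.0962). The count of falls was 0 without shZDHHC15 replicate 2, and that of rises 0 without either shZDHHC15 sample.

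Among 18 genes that control the stability of MYC protein, 6 rose (33.3%, beside 21.7% of all tested genes) and 4 fell (22.2%, beside 20.3%). Their median was 0.10. FBXO32, a ubiquitin ligase subunit, rose by 1.29 on the log2 scale, from 180 ± 3.83 CPM in shCON to 440 ± 24.3 CPM in shZDHHC15 (SD, n = 2) (adjusted p = 4.75e-08). HUWE1, a very large ubiquitin ligase, rose by 1.02 (0.67 with the offset for gene length) and USP28, a deubiquitinase that protects MYC, by 1.01 (adjusted p = 1.44e-05). AURKA and PLK1, mitotic kinases that stabilize MYC family proteins, were at -1.41 (adjusted p = 1.17e-08) and at -1.43 (adjusted p = 2.46e-08). FBXW7, the ligase best known for MYC degradation, was at 0.17 (adjusted p = 0.291).

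The noncoding genes beside MYC on chromosome 8 did not all move with it. PVT1, which shares regulatory elements with MYC, had 766 and 743 counts in shCON and 789 and 922 counts in shZDHHC15, a log2 fold change of 0.05 (adjusted p = 0.726). CASC8 fell by 1.05 (adjusted p = 3.47e-04), from 211 and 255 counts to 122 and 123 counts. PCAT1 was at 0.24 (adjusted p = 0.178) and CASC11, with 3 to 13 counts, at -0.93 (adjusted p = 0.233), while CCAT2 had at most 1 count.

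The genes closest in pattern were sought by the distance between centred log2 CPM values over the 4 samples, among 10043 other protein-coding genes. Among the nearest to MYC were PLP2 (distance 0.0249) and MAP3K14 (0.0377), and the nearest to MXD1 were STK36 (0.0286), ITPR3 (0.0380) and TCIM (0.0410). This is a description over 4 samples in 2 groups, with no test. Several of the named genes share exon bases with an antisense gene, among them KAT5, SMARCB1, TMEM97, THBS1, CCND1 and MAP3K14, and without knowledge of the strand setting their reads cannot be told from those of the partner.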

How the data were processed

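NEBNext Ultra libraries were sequenced by a company (Novogene) for the authors, and the deposited values are raw counts of reads per gene, one column per sample, without normalization. The submitters' processing notes name HISAT2, StringTie, SAMtools and the build hg38, and the counting tool and the use of strand are not given in the sources used here. All 58735 identifiers matched GENCODE release 29 in start, end and symbol. Samples were grouped by their titles, and 0 columns were left out.

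Genes passing filterByExpr (15817) were tested with edgeR 4.0.16 (R 4.3.3; TMM factors, glmQLFit, glmQLFTest) with Benjamini-Hochberg adjustment over all of them, after a check on simulated counts. Log2 fold changes are shZDHHC15 over shCON, and each standard error is the fold change divided by the root of F. RPKM used the gene length in the table. Near-identical stretches (at least 150 bases, at least 97% identity) were sought with BLAST 2.17.0. Replicates differed by more than counting noise (chi-square per degree of freedom 8.32 for shCON and 6.79 for shZDHHC15), so they were kept as separate samples.

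The members and lists were chosen with earlier results of these data known. Every member is named. From each other list, up to 3 rises and 3 falls with the largest change were named among genes past the test, without overlap between groups and with a mean of at least 50 counts. Lists of 3 or fewer genes and the noncoding genes beside MYC were named in full, and the 3 genes nearest in pattern, with a mean of at least 100 counts, were named for the member with the smallest adjusted p in each direction. CD14, COL1A1, PECAM1, KRT8, KRT18, KRT19, GRB7, EPCAM, ERBB2, CDH1, LDHA, NCL, CCND1, CDKN1A, CDKN1B, TXNIP, ARRDC4, SIN3B, L3MBTL2, PCGF6, FBXW7 and the genes that overlap members were named after their values were seen. A few genes that these rules name are not reported here. The list of genes beside MYC also held CCAT1, for which no row was matched. Alternatives were DESeq2 1.42.0, other scalings and filters, the legacy quasi-dispersion, a replicate block, leaving out each sample, and offsets for gene length and GC content.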

Additional observations from a re-analysis of the deposited data

How the results depend on the processing

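All 5 called network genes (MYC, MYCL, MXD1, MXD4 and MGA) kept their direction and their call under the 15 alternatives, of which 12 were planned and 3 (offsets for gene length, GC content or both) were added after seeing the data. MYC lay between -1.04 and -0.77 on the log2 scale with each sample left out in turn, a fit in which the lone sample of a group is assumed to vary like the other group. MAX passed without shCON replicate 1 (-0.28), and MNT passed with library size only (0.35) and with the offset for GC content (0.36). MXI1, never called, was at -0.0070 with upper-quartile factors, -0.07 without shCON replicate 2, -0.14 without shZDHHC15 replicate 1 (its range with 1 sample left out was -0.14 to 0.17), -0.040 with the offset for GC content and -0.0019 with the offset for gene length and GC content. Of 270 counts of genes under alternatives, 251 stayed within 1.5 times of the reported count. With no filter on low counts, 30168 genes were tested and 2282 rose in place of 3427. Under it 1 corepressor gene rose, 0 partners of MGA rose and 1 fell, and 3 genes activated by MYC rose. The genes activated by MYC that rose were also 3 with upper-quartile factors and with the offset for gene length. With that offset, alone or with GC content, 4 corepressor genes fell, and with GC content alone 2. Partners of MGA that rose numbered 2 with the offset for gene length and 3 with both offsets. When samples were left out singly, the corepressor genes that rose ranged from 2 to 4, the partners of MGA that rose from 0 to 1 and that fell from 0 to 3, and the genes activated through MLX that rose from 3 to 5. The causes were not tested. Gene by gene, the differences between replicates 1 and 2 were little alike in the 2 groups (correlation over genes 0.082). By gene length, though, the median of replicate 2 over replicate 1 had the same sign in both groups in every class. Over 12000 bases it was -0.174 in shCON and -0.0805 in shZDHHC15. Whether the replicate numbers pair the samples was not tested. With the replicate block, MYC was at -0.90, 3 network genes rose and 2 fell, and 3723 genes rose and 3502 fell in all. MYCL, at 12 counts in each shZDHHC15 sample, is limited by depth.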
